A study of Mus musculus with 9 samples.

Results

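Oxidative phosphorylation genes were taken as the protein-coding mouse genes whose symbol marks a subunit of respiratory complexes I to IV or of ATP synthase, or an assembly factor of complexes I and III. Of 110 such entries in the GENCODE M21 annotation, 109 of the 49585 genes in the deposited files matched, 96 of them in the nuclear genome and 13 in the mitochondrial genome. The symbols of that release were used, so subunits that it lists under unrelated names are not members. The RNA came from prostate basal cells of C57BL/6J mice, isolated by flow sorting and kept as organoids until day 5, with 3 libraries in each of 3 media. The BM medium held EGF, the BMP antagonist Noggin, the TGF-β receptor inhibitor A83-01 and the ROCK inhibitor Y-27632, and all 3 groups shared these. The R group had BM with 500 ng/ml of R-spondin1, which strengthens the response to Wnt ligands, and the RD7 group had R with 100 nM of DHT (dihydrotestosterone), the active androgen. R against BM asks what R-spondin1 changes, and RD7 against R asks what DHT adds in its presence. There was no group with DHT alone. The labels give no separate animal, sort or culture for the libraries of a group, so the p-values measure only the spread between these samples, which may be technical.

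Respiration passes electrons from NADH through complex I, or from succinate through complex II, to complex III, cytochrome c, complex IV and oxygen. Complexes I, III and IV pump protons, and ATP synthase makes ATP from the gradient. The mitochondrial genome encodes a few core subunits of complexes I, III and IV and of ATP synthase. Nuclear genes encode all other subunits, including all of complex II, and every assembly factor. The secretory epithelium of the prostate is known for exporting citrate in place of oxidising it.

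Values are FPKM, reads scaled to the length of the gene and the total of the library, with the mean ± SD of 3 libraries. Fold is the ratio of mean FPKM. The log2 fold change (± SE) is the difference of mean log2(FPKM + 0.5), and a gene was called higher or lower at a Benjamini-Hochberg adjusted p under 0.05 in limma over all 15867 genes that passed a filter on low values. Of the members, 90 nuclear and 7 mitochondrial genes passed that filter. The comparisons share libraries: RD7 against BM is the sum of the other two.

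Depth ran from 6505859 reads in BM 1 to 24141017 in BM 2. In BM 3, the nuclear members stood higher than in BM 1 and BM 2 by a median of 1.03 on the log2 scale, and 87 of the 90 lay above 0. All tested genes with a main transcript under 1000 bases had a median of 0.52 in the same difference. In RD7 2, the nuclear members stood 0.52 above RD7 1 and RD7 3, and in R 2 they stood at -0.42 against R 1 and R 3. The summed FPKM of 6 basal markers was 7041 to 10300 in the 9 libraries. The 4 muscle markers summed to at most 0.13, the 3 endothelial markers to at most 0.29 and the 5 immune markers to between 0.86 and 4.13. The 6 mesenchymal markers summed to 5.97 to 8.13 in BM, 19.9 to 24.4 in R and 64.1 to 91.8 in RD7. Of these sums, Dcn alone was 18.8 to 23.8 in R and 63.9 to 91.7 in RD7, while Col1a1 was at most 0.30. In RD7 against R, Dcn was the 1 mesenchymal marker called higher, and 3 were called lower. Among these 3, Vim had means of 1.37 in BM, 0.24 in R and 0.07 in RD7. The part of these cells in the results was not tested.

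**Figure D1:**
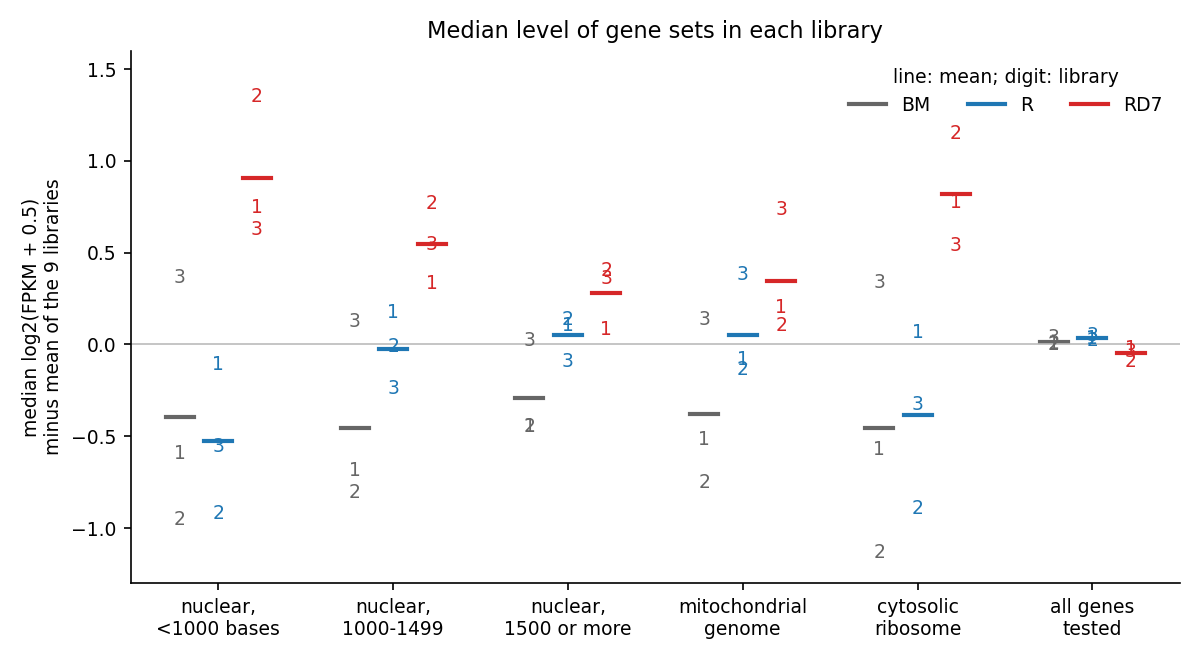
The vertical axis gives, for each library (digit) and set of genes, the median over genes of log2(FPKM + 0.5) minus each gene's mean over the 9 libraries, and lines give group means. Nuclear members with transcripts under 1000 bases spread from -0.95 in BM 2 to 1.35 in RD7 2, cytosolic ribosomal protein genes from -1.13 to 1.15 in the same libraries, and the medians of all genes tested stay between -0.09 and 0.05.

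With R-spondin1, 1 nuclear member was called. In R against BM, 1 of 90 nuclear members was higher and 0 were lower, beside 4.39% of all tested genes higher and 5.64% lower. The median log2 fold change of the nuclear members was 0.03, beside 0.02 for all genes, and its sign rested on single libraries: it was -0.10 without BM 1, -0.25 without BM 2, 0.35 without BM 3, -0.16 without R 1 and 0.17 without R 2. It was -0.13 with the length trend removed, -0.15 with the transcript length trend removed and -0.03 with limma-voom. At an unadjusted p under 0.05 there were 11 of the 90, beside 4105 of all 15867 tested genes. Called by limma-voom on read counts was 1, beside 1547 of all tested genes. Without BM 3, 22 nuclear members were higher, beside 2089 of all tested genes, and without RD7 1, 2 were, beside 652. With all libraries, 696 of all tested genes were higher.

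The gene called was Ndufa4l2 (chr10:127514967-127517154, plus strand), a paralog of the complex IV subunit Ndufa4 that is best known as a gene induced in hypoxia. Its FPKM was 4.0, 5.39 and 12.1 in BM 1 to 3, 50.1, 39.5 and 34.4 in R 1 to 3, and 49.8, 69.5 and 50.1 in RD7 1 to 3. Every R and RD7 library lay above every BM library, and R and RD7 overlapped. The means were 7.17 ± 4.34 in BM and 41.4 ± 7.96 in R (SD, n = 3), a 5.77-fold difference with a log2 fold change of 2.57 ± 0.33 and an adjusted p of 0.00066 in limma. RD7 stood at 56.5 ± 11.3, and the difference from R was not called (adjusted p = 0.33 in limma). The call in R against BM held in each of the 21 other settings tried. Ndufa4 itself went another way: it was 23.7, 15.8 and 52.6 in BM, 34.1, 15.5 and 22.3 in R, and 57.5, 85.0 and 56.0 in RD7. Its BM and R libraries overlapped, and all RD7 libraries lay above them.

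**Figure D2:**
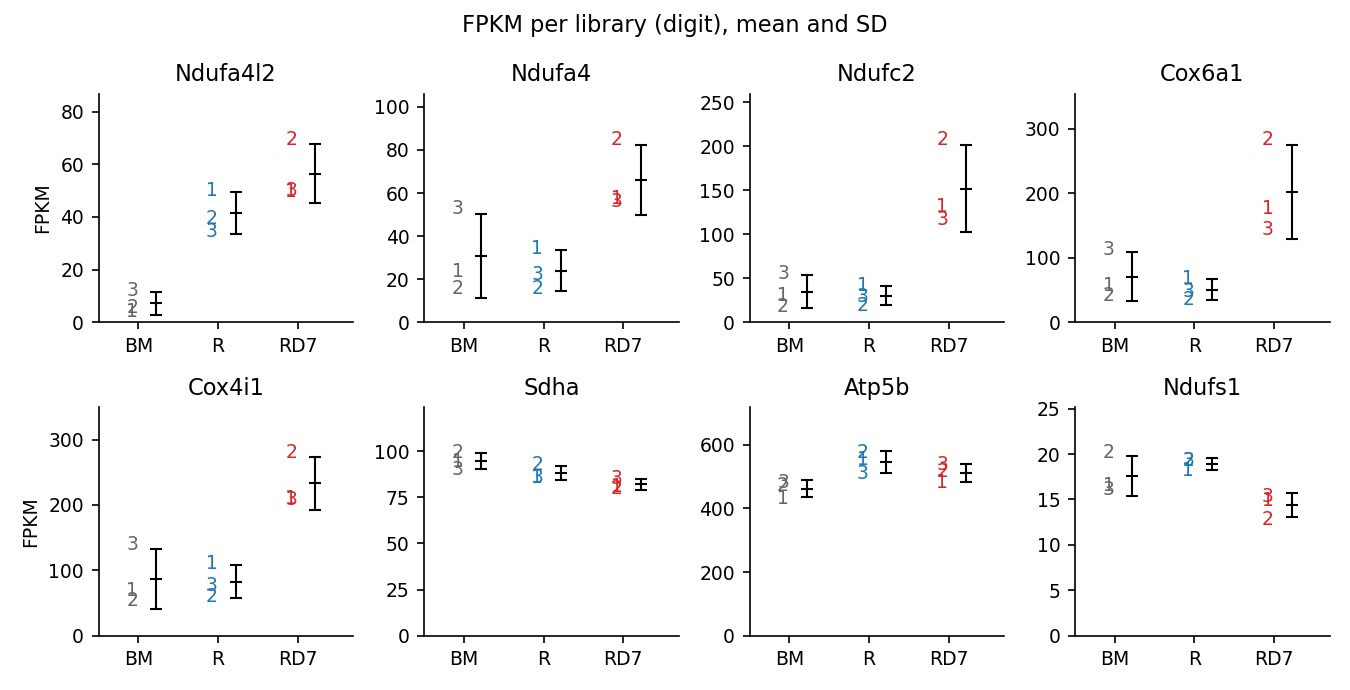
FPKM of 8 members in each library (digit), with the group mean and SD beside it, each axis starting at 0. Ndufa4l2 is lowest in BM, and Ndufa4, Ndufc2, Cox6a1 and Cox4i1 are highest in RD7. Sdha and Ndufs1 are lowest in RD7, and Atp5b is higher in all R libraries than in all BM libraries.

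With DHT, most nuclear members were higher than with R-spondin1 alone. In RD7 against R, 55 of the 90 were higher, 1 was lower and 34 were not called, beside 13.4% of all tested genes higher and 17.7% lower. Their median log2 fold change was 1.20, beside -0.09 for all genes. The libraries of RD7 all lay above those of R for 70 members and all below for 4, beside 21.7% and 30.1% of all tested genes. With all libraries, 2121 of all tested genes were higher. Without R 2 the members called higher numbered 27, beside 1403 of all tested genes. Members called higher without RD7 2 numbered 26, beside 1476. For 26 of the 56 called in either direction, the call held without each of the 9 libraries in turn. In bulk RNA, a change in the number of cells of a type and a change of RNA per cell cannot be told apart. Nuclear members summed to 3452 to 4255 FPKM in the R libraries and to 5255 to 6956 in RD7.

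Complex I, the NADH dehydrogenase, has core subunits that carry the flavin, the iron-sulfur clusters and the proton path, and a shell of accessory subunits. Of 29 accessory subunits, 25 were higher in RD7 than in R, with a median log2 fold change of 1.42. Ndufc2, an accessory subunit of the membrane arm, had the highest value of all members. Its FPKM was 30.8, 17.9 and 55.5 in BM, 41.9, 19.3 and 29.7 in R, and 131, 208 and 117 in RD7. All RD7 libraries lay above all others, while BM and R overlapped. RD7 was 5.01-fold above R (log2 fold change 2.33 ± 0.40, adjusted p = 0.0018 in limma). Ndufa1, a small accessory subunit on the X chromosome, followed with 9.12, 3.59 and 5.62 in R and 20.9, 41.4 and 17.4 in RD7, a log2 fold change of 2.02 ± 0.45. Ndufs6, Ndufa7 and Ndufa5, also accessory subunits, had log2 fold changes of 1.85, 1.85 and 1.75. The calls of all 5 held without each library in turn. Lowest among the called were Ndufb2, Ndufb5 and Ndufa8, at 0.88, 0.95 and 0.96. The Ndufb2 call held without each library. The Ndufb5 call was lost without R 2, R 3 or any RD7 library, and the Ndufa8 call without R 2, R 3, RD7 2 or RD7 3. Without R 2 the accessory subunits called numbered 15, and without RD7 2 they numbered 14.

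Of 7 tested nuclear core subunits, 1 was higher and 1 lower, with a median of 0.56, and 2 were called by limma-voom. Ndufs7, which carries the last iron-sulfur cluster before ubiquinone, was the one that rose (log2 fold change 1.11 ± 0.32, adjusted p = 0.024 in limma), a call lost without R 2, R 3, RD7 2 or RD7 3. Without each of these 4 libraries 0 core subunits were higher, and without BM 3, 4 were. Ndufs1, the largest core subunit, stood at 18.1, 19.3 and 19.2 in R and at 14.9, 12.8 and 15.3 in RD7, with all RD7 libraries lowest. It fell by 0.39 on the log2 scale (adjusted p = 0.049 in limma), and that call was lost in 16 of 21 other settings, among them the omission of any R or RD7 library. Ndufs8, a core subunit that carries iron-sulfur clusters, was at 74.9 ± 17.9 in R and 131 ± 29.1 in RD7 and was not called. Of 8 complex I assembly factors, Ndufaf3 and Ndufaf8 were higher, and neither was without R 2 or without RD7 2.

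Complex II, succinate dehydrogenase, links the citrate cycle to the chain. None of its 4 genes was called in RD7 against R by limma or limma-voom. None had an unadjusted p under 0.05, beside 6812 of all 15867 tested genes. Without BM 3, Sdhb was called. Sdha, the flavoprotein, stood at 94.4, 99.2 and 90.2 in BM, 86.0, 92.8 and 85.8 in R, and 81.0, 79.7 and 85.3 in RD7, and all RD7 libraries lay below all R libraries. Sdhb, the iron-sulfur subunit, was 76.0, 67.9 and 54.3 in R and 76.3, 109 and 94.6 in RD7, which did not overlap. The membrane anchor Sdhc was 40.1 ± 2.99 in R and 45 ± 5.14 in RD7, and the other anchor, Sdhd, 167 ± 21.5 and 200 ± 25.9. Both anchors overlapped between the groups.

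In complex III, 5 of 8 subunits were higher in RD7 than in R, with a median of 1.43. Uqcr10, a small supernumerary subunit, was 25.1, 12.7 and 14.9 in R and 59.6, 89.2 and 54.6 in RD7 (log2 fold change 1.95 ± 0.36, adjusted p = 0.0027 in limma). Uqcr11, another small subunit, had a log2 fold change of 1.81. The RD7 libraries lay above all R libraries for both. The 3 subunits not called were the core proteins Uqcrc1 and Uqcrc2 and the Rieske iron-sulfur protein Uqcrfs1. Uqcrc1, the nuclear complex III member with the highest mean, was 169, 180 and 153 in R and 174, 229 and 237 in RD7, and the groups overlapped. Of 3 assembly factors, Uqcc2 and Uqcc3 were higher. Without R 2 or without RD7 2, 3 subunits and 1 assembly factor were higher.

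Complex IV, cytochrome c oxidase, had 11 of 11 tested nuclear subunits of the ubiquitous set higher in RD7 than in R, with log2 fold changes from 1.22 to 1.99 and a median of 1.52. Cox6a1, the subunit at the dimer contact, was 57.6, 41.1 and 113 in BM, 67.3, 34.6 and 48.3 in R, and 177, 284 and 144 in RD7. All RD7 libraries lay above all others, and BM 3 was the highest of the rest. RD7 was 4.03-fold above R (log2 fold change 1.99 ± 0.38, adjusted p = 0.0034 in limma). Cox4i1, the regulatory subunit that binds ATP and the nuclear complex IV member with the highest mean, went from 82.7 ± 25.2 in R to 233 ± 40.5 in RD7 (log2 fold change 1.52 ± 0.33, adjusted p = 0.0070 in limma). Without R 2 or without RD7 2, 5 of the 11 were called, and without R 3, 7 were. The isoforms that other tissues use stayed near the floor. Cox4i2, the lung form, reached at most 0.14 FPKM, Cox6a2 0.08 and Cox7a1, the muscle form, 0.33. Cox7b2, Cox8b and Cox8c were listed at 0 in all libraries. Cox6b2, the testis form, was the one such isoform that passed the filter, at 0.26 ± 0.19 in R and 0.70 ± 0.15 in RD7, and was not called (adjusted p = 0.054 in limma). The pairs thus stood far apart: Cox6b1, the form of most tissues, was at 30.4 ± 9.93 in R and 101 ± 40.1 in RD7.

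In ATP synthase, 9 of 16 subunits were higher in RD7 than in R, with a median of 0.91. The catalytic subunit Atp5b, the ATP synthase member with the highest mean, was 430, 473 and 483 in BM, 554, 575 and 509 in R, and 481, 515 and 538 in RD7. Its R and RD7 libraries overlapped, and its log2 fold change of -0.09 was not called. Atp5g1, one of 3 genes for the same c-ring protein, rose with a log2 fold change of 1.51. Atp5g2, the second, was among the lowest called at 0.98, a call lost without R 2, R 3 or any RD7 library, and Atp5g3 was not called. Atp5l, a small membrane subunit, was at 0.51 ± 0.13 in R and 1.34 ± 0.38 in RD7 (log2 fold change 0.85), and Atp5j, of the peripheral stalk, was at 19.6 ± 5.43 and 41.4 ± 13.4 (1.04). The Atp5l call was lost without R 1, R 2 or RD7 2, and the Atp5j call without R 2, R 3 or any RD7 library. In the whole complex, 3 subunits were higher without R 2, 3 without RD7 2 and 5 without R 3. The level of Atp5l was low per base of a 6443-base gene model, although its main transcript has 544 bases. Reads from overlapping genes cannot be told apart in libraries that do not mark the strand: 65.6% of the exon bases of Ndufaf2, 47.9% of Atp5o, 39.0% of Ndufb6 and 30.0% of Ndufa13 lie in another gene too.

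**Figure D3:**
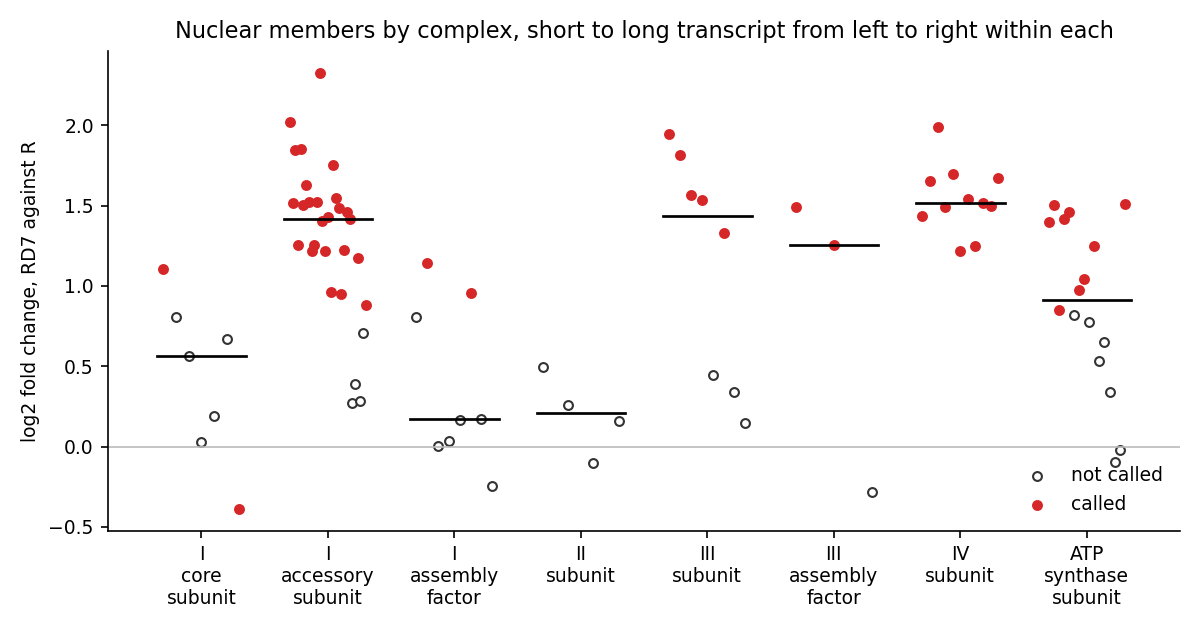
Each point is a tested nuclear member, placed by complex and, from left to right within it, by transcript length; the vertical axis is the log2 fold change of RD7 against R, filled points were called, and lines are medians. The 11 nuclear complex IV subunits of the ubiquitous set lie between 1.22 and 1.99, and none of the 4 complex II subunits was called. The complexes also differ in transcript length, and the 2 were not separated.

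The fold change with DHT varied with transcript length. The files divide reads by the merged exons of a gene, which include retained introns, so the length of the principal transcript (the APPRIS choice in GENCODE M21) was used here, and this choice and the upper class limit were made after the data were seen. Over the 90 nuclear members, Spearman's rho between that length and the log2 fold change of RD7 against R was -0.74, against -0.28 over all genes tested. The points share libraries and depth, so this is a description. The 50 members with transcripts under 1000 bases had a median of 1.47 and 45 were called higher. The 18 members of 1000 to under 1500 bases had a median of 0.55 with 6 higher, and the 22 of 1500 bases or more had 0.22 with 4 higher and 1 lower. Without R 2 the calls in the 3 classes were 22, 3 and 2, without RD7 2 they were 21, 3 and 2, without R 3 the longest class had 2, and without BM 3 the middle class had 12. In all tested genes, the medians of the same classes were 0.26, 0.17 and -0.15. Length also differed between the complexes. Cox6a1 and Cox4i1 of complex IV have 571 and 765 bases, and Sdhb, Sdhd and Sdhc of complex II have 1142, 1231 and 3171. The part of length in the differences between complexes was not tested. The 4 called higher in the longest class were Atp5g1 (4715 bases), the accessory subunits Ndufb2 (4371) and Ndufs4 (1698) of complex I, and Uqcrq (1521), a small subunit of complex III.

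Removing the trend of all genes with transcript length within each library changed few calls in RD7 against R: 55 of the 56 held, and the median became 0.88. The 3 classes then had medians of 1.11, 0.30 and 0.22, with 45, 6 and 5 higher, so a gradient with length remained within the members. The part of length in the calls that held was not tested. In RD7 against BM, 53 of 79 calls held with the transcript length trend removed, and 65 with the trend of gene length removed. Short transcripts also moved between libraries of one medium. The difference of BM 3 from BM 1 and BM 2 shares no library with RD7 against R, and over the 90 nuclear members the 2 differences had a Spearman's rho of 0.68. The cytosolic ribosomal protein genes, which are short and numerous, went alongside: 52 of 77 were higher in RD7 than in R, with a median of 1.25. Their library medians ran from -1.13 in BM 2 to 1.15 in RD7 2, as those of the short nuclear members did. The part of library differences such as these in the DHT comparison was not tested. With BM 3 and RD7 2 both left out, an alternative added after the data were seen, 60 nuclear members were higher in RD7 than in R and 26 were higher in R than in BM. Of all tested genes, 2141 and 2293 were higher in that fit, beside 2121 and 696 with all libraries.

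**Figure D4:**
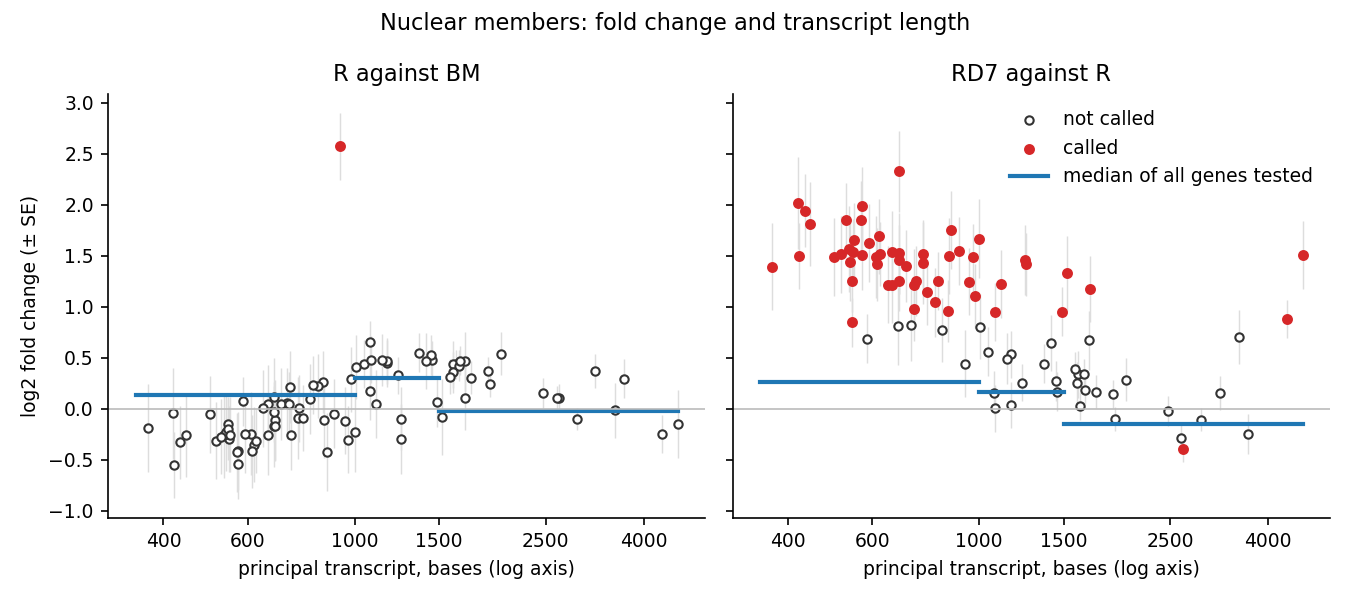
The log2 fold change (± SE) of each nuclear member against the length of its principal transcript on a log axis, for R against BM (left) and RD7 against R (right); red points were called and blue lines are the medians of all tested genes in 3 length classes. On the right, members under 1000 bases centre on 1.47 and those of 1500 bases or more on 0.22, while on the left the 50 short members centre on -0.15.

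The length pattern of R against BM ran the other way. Spearman's rho was 0.62 over the nuclear members and -0.39 over all genes tested. The members under 1000 bases had a median of -0.15, and those of 1000 to under 1500 bases 0.45. Every R library lay above every BM library for 8 of the 90 members, beside 15.9% of all tested genes. The 7 of these other than Ndufa4l2 had transcripts of 1500 bases or more, and Ndufv1, the complex I core subunit that binds NADH, was one. Ndufv1 was at 58.0, 56.9 and 67.9 in BM and at 88.0, 88.5 and 77.6 in R, with an adjusted p of 0.064 in limma.

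Against BM, RD7 held 79 of 90 nuclear members higher and 0 lower, beside 47.0% of all tested genes called, 21.6% higher and 25.4% lower, with a median of 1.14 beside -0.07. The RD7 libraries all lay above those of BM for 72 members and all below for 3, beside 23.1% and 29.3% of all tested genes. At an unadjusted p under 0.05 there were 83 members, beside 8782 of all 15867 tested genes. Called by limma-voom were 79 members, beside 7465 of all tested genes. Without BM 1 the members higher numbered 44, without BM 2 they numbered 38 and without RD7 2 they numbered 32. Of all tested genes, 2422, 2306 and 2220 were higher in these fits, beside 3425 with all libraries. In complex II, Sdhb rose by a log2 fold change of 0.98 ± 0.25, Sdhd by 0.59 ± 0.18 and Sdhc by 0.53 ± 0.17, with adjusted p of 0.012, 0.025 and 0.026 in limma, and Sdha was not called. The Sdhc and Sdhd calls were lost without BM 1, BM 2 or RD7 2, Sdhd also without RD7 3, and Sdhb without RD7 2. Other calls at the low end were Uqcrc2 (0.52), Atp5s, a coupling factor of ATP synthase (0.61), Ndufaf1, Ndufaf7 and Ndufb2. Uqcrc2 held without each library, and the other 4 were lost without BM 1, BM 2 or RD7 2, all but Ndufb2 without RD7 3 and Ndufaf7 also without R 1 or R 2. With either length trend removed, the calls of Sdhd, Atp5s, Ndufaf1 and Ndufaf7 were lost. Highest were Ndufa4l2 (3.02), Ndufc2 (2.22) and Ndufa1 (1.98), whose calls held without each library.

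Of the genes of the mitochondrial genome, none was called with R-spondin1 or with DHT on top of it. None of the 7 tested was called in R against BM or in RD7 against R by limma or limma-voom, beside 10.0% and 31.1% of all tested genes called in limma. None of the 7 had an unadjusted p under 0.05, beside 4105 and 6812 of all 15867 tested genes. The medians of the 7 were 0.47 and 0.31, and their difference from the nuclear members was not tested. The median in R against BM was 0.77 without BM 3, and 0.25 or 0.19 with the length or the transcript length trend removed. In RD7 against R it was 0.06 and 0.00 with those trends removed, 0.20 without R 1, 0.16 without R 2 and 0.14 without RD7 3. With no filter on low values the median was 0.18, but over all 13 mitochondrial members, which takes in those that had not passed the filter. Each of the 7 tested members overlapped between the groups in both comparisons. Without BM 3, 3 were called higher in R than in BM, beside 2089 of all tested genes. In RD7 against BM, mt-Nd1, mt-Nd4 and mt-Nd6 were called higher and 0 lower, beside 21.6% of all tested genes higher and 25.4% lower. These calls were all lost without BM 1, BM 2 or RD7 3, and with either length trend removed. Without BM 3, 5 members were higher, beside 4076 of all tested genes. Mitochondrial members took between 0.11% and 0.31% of the reads of a library, and nuclear members between 0.72% and 1.34%.

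The 7 mitochondrial genes that passed the filter lay between 31.7 and 839 FPKM. mt-Co1, the catalytic subunit of complex IV, was 318, 297 and 284 in BM, 288, 332 and 638 in R, and 533, 352 and 839 in RD7. R 3 and RD7 3 stood highest, and the R libraries overlapped both other groups. mt-Cytb, the complex III cytochrome, was 229, 242 and 443 in BM, 385, 364 and 468 in R, and 429, 379 and 658 in RD7. mt-Nd1, a complex I core subunit, was 158, 150 and 333 in BM, 343, 250 and 338 in R, and 328, 353 and 475 in RD7. BM 3 was the highest BM library for both. The complex I core subunits mt-Nd2, mt-Nd4, mt-Nd5 and mt-Nd6 lay between 31.7 and 171 FPKM.

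The other 6 were nearly absent from the same libraries, and none passed the filter. Over all 9 libraries mt-Co2 had 58 reads, mt-Atp6 28, mt-Co3 11, mt-Nd4l 7, mt-Atp8 5 and mt-Nd3 1, and the highest FPKM among them was 1.28, of mt-Co2 in R 3. For 5 of the 6, between 98.0% and 100% of the 50-base windows of the gene were also found in another transcript of GENCODE M21, each time an unprocessed pseudogene on chromosome 1 between 24611535 and 24616197. The share was 62.2% for mt-Nd4 and 51.1% for mt-Co1, 8.19% for mt-Nd2, 7.61% for mt-Nd5, and 0 for mt-Nd1, mt-Nd6 and mt-Cytb. The pseudogenes themselves held at most 6.86 FPKM. mt-Atp8 shared no such window, and lies between mt-Co2 and mt-Atp6, whose copies on chromosome 1 also neighbour each other. How reads with several matching places were counted is not given in the sources used here, and its part in these low values was not tested. No direction can be read for these 6 genes.

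Bases 101 to 160 of 3 mitochondrial genes from the GENCODE M21 transcripts (GRCm38) show the contrast, with bases in capitals where a 50-base window is shared with the chromosome 1 copy. mt-Co2 was near 0, mt-Nd4 was measured although this stretch is shared, and mt-Nd1 has no shared window.
mt-Co2: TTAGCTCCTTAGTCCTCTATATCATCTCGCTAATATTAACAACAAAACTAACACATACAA
mt-Nd4: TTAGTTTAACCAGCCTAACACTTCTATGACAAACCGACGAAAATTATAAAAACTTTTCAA
mt-Nd1: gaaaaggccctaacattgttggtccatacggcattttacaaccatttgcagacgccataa

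**Figure D5:**
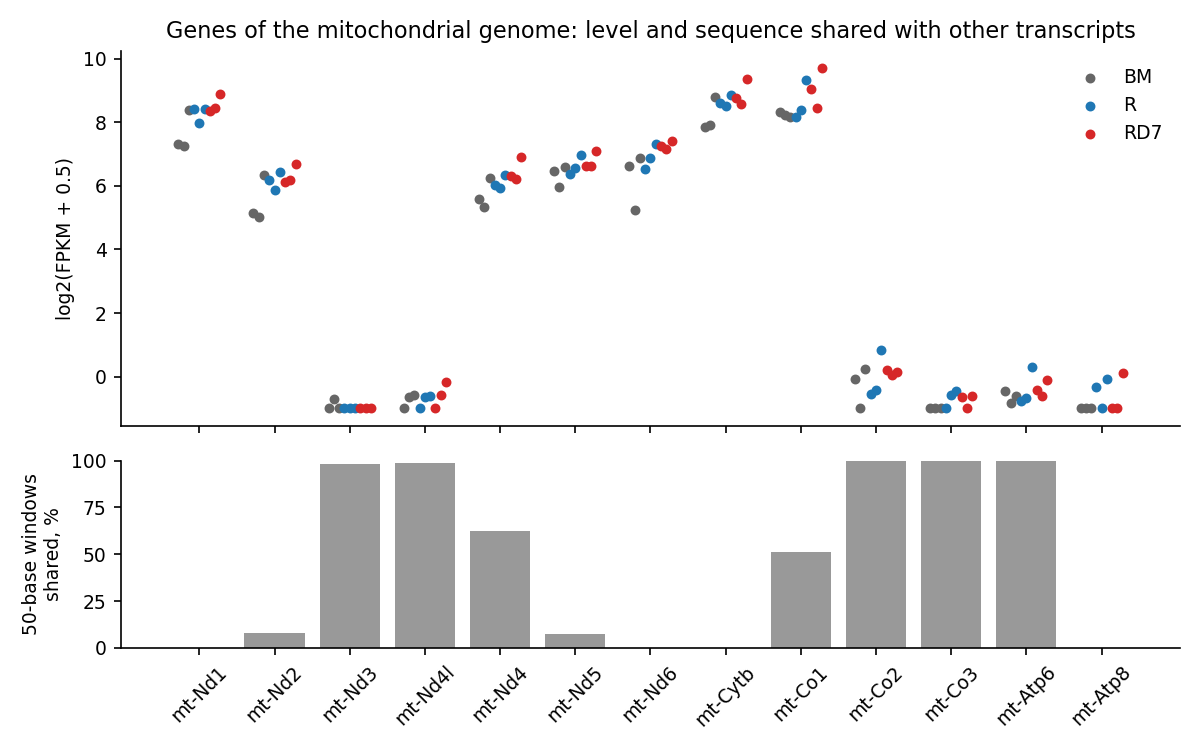
Upper panel: log2(FPKM + 0.5) of the 13 mitochondrial members in each library, coloured by group. Lower panel: percent of the gene's 50-base windows found in another annotated transcript. The 5 genes with shares from 98.0% to 100% lie near the floor, as does mt-Atp8 with 0%, and the other 7 lie at 31.7 FPKM or more.

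Promoters were compared because so many nuclear members rose together. RefSeq promoters (GRCm38.p6, from 250 bases before to 50 after the start) were found for 77 of the 96 nuclear members, and motifs were searched on both strands. These motifs and the promoters shown were chosen after the values were seen. NRF1 is a regulator of nuclear respiratory genes, and 26.0% of the members held its motif (GCGCA and GCGC with any 1 base between them), against 5.19% of the 27025 genes of the table. The GABPA motif CCGGAAG was in 23.4% against 9.93%. The 27025 genes were not limited to those tested here, and no share was taken over all tested genes. Members called higher in RD7 than in R held the NRF1 motif in 25.0% and the GABPA motif in 27.1%, and tested members that were not higher in 30.8% and 19.2%. The ESRRA motif TCAAGGTCA was in 2.6% of members and 0.466% of all genes, and the HIF motif ACGTG in 24.7% and 21.8%. Of 48 members called higher in RD7 than in R, 0 held the ESRRA motif, and of 26 tested members that were not higher, 2 held it. The HIF motif was in 22.9% and 23.1% of these. The full androgen receptor motif (AGAACA and TGTTCT with any 3 bases between them) was in 0 of the 77 members and in 0.0111% of all genes, within this window only.

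The following 200 bases, each ending 31 bases before the RefSeq start, are those of the members with the highest folds in their complexes, Cox6a1 (chr5:115348989-115349188, minus strand) and Ndufc2 (chr7:97399773-97399972, plus strand), and of Sdhd (chr9:50603880-50604079, minus strand), which was not called in RD7 against R. Capitals mark matches to the NRF1 and GABPA motifs on either strand. The stretches of Cox6a1 and Sdhd hold NRF1 matches and that of Ndufc2 holds neither motif, so stretches with and without these letters were among those of members that rose.
Cox6a1: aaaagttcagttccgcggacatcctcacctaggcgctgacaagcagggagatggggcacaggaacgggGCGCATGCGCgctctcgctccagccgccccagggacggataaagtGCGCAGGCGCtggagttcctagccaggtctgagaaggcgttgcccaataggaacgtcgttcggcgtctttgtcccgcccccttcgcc
Ndufc2: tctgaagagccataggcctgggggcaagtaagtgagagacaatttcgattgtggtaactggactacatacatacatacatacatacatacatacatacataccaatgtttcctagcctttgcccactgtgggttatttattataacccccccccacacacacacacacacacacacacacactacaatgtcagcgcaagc
Sdhd: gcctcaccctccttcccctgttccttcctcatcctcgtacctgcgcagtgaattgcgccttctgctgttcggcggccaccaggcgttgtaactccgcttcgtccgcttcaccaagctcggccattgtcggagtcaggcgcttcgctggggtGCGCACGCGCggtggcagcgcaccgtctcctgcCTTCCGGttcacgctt

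Other genes of the mitochondrion were counted by list, and their difference from the nuclear members was not tested. In RD7 against R, 13.4% of all tested genes were higher and 17.7% lower, with a median of -0.09. Of 78 mitochondrial ribosomal protein genes, 21 were higher and 1 lower (median 0.52), and 69 lay above 0. Of 42 electron carriers and assembly factors outside the symbol rule, 10 were higher and 4 lower (median 0.17). Higd2a, a complex IV assembly factor, had the highest log2 fold change, 1.52, and Cox14, also of complex IV, had 1.39. Cox15, which makes heme a for complex IV, fell by 0.66. In the citrate cycle and its pyruvate entry, 3 of 22 genes were higher and 4 lower, with a median of 0.01, which is near the shares of all genes. Pdk2, a kinase that turns off pyruvate dehydrogenase, rose by 1.38 on the log2 scale, while its relative Pdk1 fell by 0.83 and citrate synthase, Cs, fell by 0.50. The Cox14 and Pdk2 calls held without each library. The Higd2a call was lost without R 2 or RD7 2, Cox15 without any R library, RD7 2 or RD7 3, Pdk1 without R 2, R 3, RD7 2 or RD7 3, and Cs without R 2, R 3 or RD7 3.

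Of 14 tested regulators of mitochondrial genes, 1 was higher and 6 lower. Hif1a, the hypoxia factor, fell by 1.58 on the log2 scale (adjusted p = 7.9e-05 in limma), and that call held in each of 21 other settings. Pprc1, a relative of the coactivator PGC-1α, fell by 0.74 and Nrf1 fell by 0.44, while Esrra, a nuclear receptor that drives respiratory genes, rose by 0.47. The Nrf1 call was lost in 13 and the Esrra call in 9 of 21 other settings, both without any single R library, RD7 2 or RD7 3, Nrf1 also without BM 1 and Esrra without RD7 1, and Pprc1 was lost without R 3, RD7 2 or RD7 3. Of 21 tested genes of mitochondrial transcription and genome maintenance, 0 were higher and 2 lower, the RNA-binding proteins Fastkd2 and Fastkd5, both lost without R 2, R 3 or RD7 2, and Fastkd2 also without R 1 or RD7 1. At an unadjusted p under 0.05 there were 6 of these 21, beside 6812 of all 15867 tested genes. Called by limma-voom were 3 of the 21, beside 5393 of all tested genes.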

How the data were processed

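Polyadenylated RNA of 9 libraries was amplified with a SMART-Seq kit, per the labels' protocols; standard kits of this kind mark neither the strand nor the molecule. The authors deposited FPKM, per the file headers. Of tools, the submitters' processing notes list edgeR 3.24.1, CASAVA 1.9, featureCounts and STAR 2.6.1a, and of builds GRCm38; what each was used for, the annotation release and the strand setting are not given in the sources used here. Reads were read back from FPKM, gene length (GENCODE M21) and the library's step, whole within 0.01 of a read, for at least 99.988% of the reads of each library; 23 members needed a fitted length. Genes with at least 0.5 CPM in 3 libraries were tested with limma 3.58.1 in R 4.3.3 on log2(FPKM + 0.5), with a trend, robust settings, all 9 libraries and 6 residual degrees of freedom. A count model had been planned only if the files held counts. On the reads read back, limma-voom was an alternative. Tests were two-sided. Python 3.11.15 was used for tables and plots. The fit was tested on simulated data. Libraries of a group differed by far more than counting noise (chi-square per degree of freedom 9.85 to 78.6). Members, lists and comparisons were chosen with earlier results of these data known. Named members are the 8 highest and 8 lowest called in each comparison, the mitochondrial and Sdh genes, the Cox isoform pairs and the member with the highest mean of each complex; Ndufa4, Ndufs7, Ndufv1, the third c-ring gene, Uqcc1 to Uqcc3 and the genes whose libraries did not overlap were chosen after their values were seen. Alternatives covered scaling, pseudocount, filter, length, test, groups, block and each library; 2 were added after the data were seen. Some genes that this rule would name are not reported here.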

Additional observations from a re-analysis of the deposited data

How the results depend on the processing

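Other settings were median-of-ratios scaling, library totals without mitochondrial genes, pseudocounts of 0.1 and 1, no filter on low values, either length trend removed, limma-voom on reads, 2 groups alone, a replicate block, and each library left out. Single called genes were followed through these settings, 34 in RD7 against R, 29 in RD7 against BM and 1 in R against BM, and 0 of these changed direction; of 714 values in RD7 against R, 136 fell short of the threshold, and of 609 in RD7 against BM, 98 did. Nuclear members higher in R than in BM numbered 1 in all settings but those without a library (1 to 22) and without BM 3 and RD7 2 (26). Of all tested genes, 368 to 2089 were higher without a library and 2293 without BM 3 and RD7 2. Mitochondrial members higher in R than in BM numbered 0 to 3 without a library and 4 without BM 3 and RD7 2. Nuclear members higher in RD7 than in R ranged from 26 to 66 without a library, and members lower from 0 to 1. Of all tested genes, 1403 to 2631 were higher in the same fits. The 1 lower member became 0 with median-of-ratios scaling, mitochondrial genes out of the total, pseudocount 1, no filter, either length trend removed, or without BM 3 and RD7 2. Nuclear members higher in RD7 than in BM ranged from 32 to 84 without a library, and their median of 1.14 became 0.67 with the transcript length trend removed. Of all tested genes, 2220 to 4076 were higher in RD7 than in BM without a library. Mitochondrial members higher in RD7 than in BM numbered 3, and 6 with median-of-ratios scaling, 0 with no filter, 0 with the length trend removed, 0 with the transcript length trend removed, 6 without BM 3 and RD7 2 and 0 to 5 without a library. Of all tested genes, 3425 were higher with all libraries, 3850 with median-of-ratios scaling and 3663 without BM 3 and RD7 2. With the length or the transcript length trend removed, 3594 and 3404 were, and with no filter 2841 of 26813. The median of the mitochondrial members, 0.82, became 0.37 with the length trend and 0.35 with the transcript length trend removed. With no filter it was 0.44, but over all 13 mitochondrial members in place of the 7 tested. The causes were not tested. Same-numbered libraries correlated between -0.52 and 0.27 in their deviations from group means, and differently numbered ones between -0.58 and 0.58. With 3 libraries in a group, these values cannot tell whether the numbers pair samples. With a replicate block the nuclear counts were 1, 48 and 68 higher, the 1 lower member in RD7 against R became 0, and mitochondrial members higher in RD7 than in BM became 6. With the replicate block and the length trend removed, the lower member became 0 and the mitochondrial median of RD7 against BM became 0.37. BM 1, with the fewest reads, allows up to 0.461 CPM for a gene at 0 (3 reads), for counting error only.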
